A study of Drosophila melanogaster with 17 samples.

Results

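The comparison is between heads of old flies that carry the orco2 mutation and heads of old w1118 flies, across all measured features. Its members are the 4 libraries of these groups among the 17 libraries of the series, taken from the head count table by their labels, with 2 orco2 and 2 w1118 libraries. The orco2 group were Drosophila melanogaster males labelled as mutant for Orco, sampled at day 40. The w1118 group were males of that strain, which lacks white function, sampled at the same age. All flies were mated males kept at 25 °C and 60% humidity in 12 h of light and 12 h of dark, at 20 per vial, and were collected at ZT8, 8 h after lights on. Heads were dissected, and polyadenylated RNA was enriched on oligo(dT) beads and sequenced. The labels do not say how many heads made a library or whether the 2 libraries of a group came from separate vials. The p-values thus cover the spread between libraries of a group, estimated jointly over the 8 head libraries of day 3 and day 40. They cover nothing beyond that spread, which may be technical. The series title names the regulation of circadian rhythm by olfactory neurons as its subject.

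Orco is the co-receptor that insect odorant receptors need to reach the sensory membrane and to form an ion channel. The circadian clock of the fly is a loop in which CLK and CYC activate per and tim, whose proteins return to the nucleus and repress that activation. A second arm runs through vri and Pdp1, and cwo adds a further repressor. Many head transcripts follow this loop with the time of day, among them genes of photoreceptors, glia and the fat body of the head. All libraries here came from 1 time of day, so a lower level can be a lower mean or another phase of a rhythm, and these cannot be told apart.

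The 4 libraries held 30371987 and 30178115 counts in orco2 and 32970825 and 33932201 counts in w1118. Orco (FBgn0037324, chromosome 3R, 5407183 to 5412406, BDGP6) had 0.872 and 1.16 CPM in orco2 heads, against 2.60 and 3.04 CPM in w1118 heads, with no overlap (log2 fold change -1.47 ± 0.29, adjusted p = 0.0174). Its call was lost when any 1 of the 4 libraries was left out. The eye colour gene w had 22.0 and 18.5 CPM in orco2 heads, against 0.375 and 0.232 CPM in w1118 heads (log2 fold change 6.04 ± 0.29, adjusted p = 6.4e-05). The genotypes thus differed in transcripts of both Orco and w, and the parts of these genes and of the strain background in any difference cannot be told apart. Neuronal, photoreceptor and glial markers were present in every library, and 0 of the 5 listed for each of these types were at 0. Their summed levels were 2447 and 2552 CPM in orco2 against 3312 and 3018 CPM in w1118 for neurons, and 1868 and 1694 CPM against 1606 and 1736 CPM for glia. The photoreceptor markers summed to 76326 and 73091 CPM in orco2 heads and 74359 and 78767 CPM in w1118 heads. The fat body markers summed to 9088 and 7765 CPM in orco2 heads and 3203 and 3981 CPM in w1118 heads. Most of this was apolpp, at 8837 and 7477 CPM in orco2 heads and 3174 and 3932 CPM in w1118 heads. Lsp2 and Yp1 were higher in both orco2 libraries, Yp2 overlapped between the groups and Fbp1 was lower in both. Testis markers summed to at most 0.232 CPM and those of the accessory gland to at most 0.291 CPM. One w1118 library stood apart in some gut transcripts, while another gut marker was higher in orco2. The trypsin gene alphaTry was at 69.8 CPM in w1118 replicate 2 and at 0 in each of the other libraries, as was betaTry at 50.6 CPM. The amylase gene Amy-p was at 392 and 413 CPM in orco2 heads, against 80.8 and 196 CPM in w1118 heads. The 8 midgut markers summed to 398 and 418 CPM in orco2 heads and 84.3 and 360 CPM in w1118 heads. Of 45 gut enzyme genes, 22 were tested, and 1 rose (Mal-A5) and 0 fell, and the part of gut tissue in other results was not tested. In whole heads, fewer cells of a type and less RNA per cell cannot be told apart.

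A feature is said to have risen or fallen in orco2 when its adjusted p, from edgeR over all 12243 tested features, was under 0.05. Where a gene is followed by a value in brackets, this is its log2 fold change ± SE at day 40. By that rule 1586 features differed, or 13.0% of those tested, with 987 higher (8.06%) and 599 lower (4.89%) in orco2. The median log2 fold change over all features was -0.0017. All 1586 had libraries that did not overlap between the groups, as did 66.1% of all tested features, so the share without overlap is high for any group of features. Of the features that differed, 534 were at least 2-fold higher and 234 at least 2-fold lower. The count rested on each library. It was 356 without orco2 replicate 1, 475 without orco2 replicate 2, 319 without w1118 replicate 1 and 735 without w1118 replicate 2. A fit of only these 4 libraries, without the day 3 heads that share the estimate of the spread, gave 3113. The shared spread moved with the young heads too. The count was 885 and 890 without 1 or the other w1118 library of day 3, and 3552 and 3460 without 1 or the other orco2 library of day 3. In such fits the group left with 1 library is assumed to vary like the others. Of the 61 gene lists, 52 had more called members with the day 40 libraries alone and 55 when 1 orco2 library of day 3 was left out, whichever it was, while 44 had fewer when either w1118 library of day 3 was left out and 50 to 54 had fewer without 1 day 40 library.

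The fold changes moved with transcript length. Of 8007 protein-coding genes with a mean of at least 5 CPM, those in the shortest of 5 equal groups by summed exon length had a median log2 fold change of 0.31, with 286 higher and 27 lower. The next 3 groups had medians of 0.17, 0.07 and -0.09. In the longest group the median was -0.31, with 34 higher and 258 lower. Across these genes the Spearman correlation of fold change and exon length was -0.57 at day 40 and -0.24 at day 3. A slope of this kind also stood between replicates of the same group. The median log2 ratio of orco2 replicate 1 to replicate 2 was 0.14 in the shortest and -0.11 in the longest group of genes, and that of w1118 replicate 1 to replicate 2 was -0.18 and 0.08. The part of RNA quality or library preparation in the day 40 slope was not tested. A fit with a gene length offset per library, added after the data were seen, called 1262 features, of which 1107 were among the 1586. The plot of list medians gives both fits for each list drawn.

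**Figure D1:**
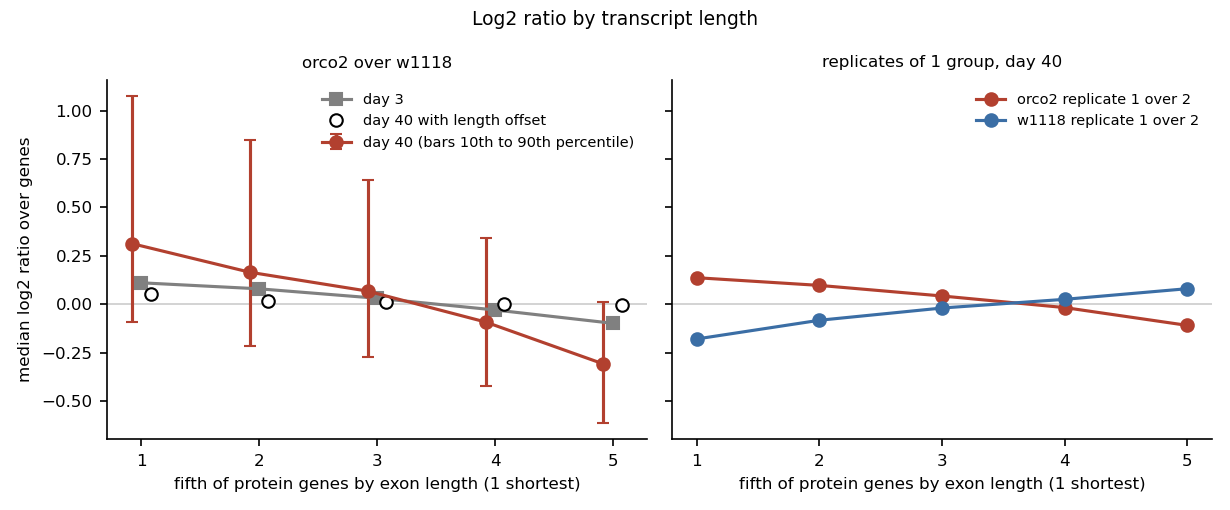
Median log2 ratio over protein-coding genes in 5 equal groups by exon length, for orco2 over w1118 heads (left; red, day 40 with bars for the 10th and 90th percentiles of genes; grey, day 3; open, day 40 with the length offset) and for replicates within a group at day 40 (right). The day 40 medians go from 0.31 in the shortest to -0.31 in the longest group, and lie between -0.0016 and 0.05 with the offset.

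The repressor arm of the clock was lower in orco2 heads. The genes per and tim, which encode the main repressors, fell together with vri, cwo and Pdp1, while Clk and cyc, the activator pair, and the blue-light receptor gene cry did not pass. Transcripts of tim (FBgn0014396, chromosome 2L, 3493986 to 3508119) were at 119 and 132 CPM in orco2 heads, against 674 and 609 CPM in w1118 heads (log2 fold change -2.35 ± 0.18, adjusted p = 0.000447). Those of vri (FBgn0016076, chromosome 2L, 5288944 to 5311223) stood at 105 and 95.3 CPM in orco2 heads, against 402 and 389.7 CPM in w1118 heads (log2 fold change -1.99 ± 0.11, adjusted p = 0.000123). The level of per was 52.4 and 50.7 CPM in orco2 heads, against 183 and 181 CPM in w1118 heads (log2 fold change -1.82 ± 0.13, adjusted p = 0.0003). The orco2 libraries were lower than both w1118 libraries for each of these 3 genes, by more than 3-fold. The repressor gene cwo had 68.0 and 59.7 CPM in orco2 heads, against 133 and 127 CPM in w1118 heads (log2 fold change -1.02 ± 0.13, adjusted p = 0.0028). The activator gene Pdp1 had 477 and 453 CPM in orco2 heads, against 868 and 800.1 CPM in w1118 heads (log2 fold change -0.84 ± 0.18, adjusted p = 0.0206). Clk was measured at 57.2 and 62.0 CPM in orco2 heads, against 42.4 and 38.5 CPM in w1118 heads (log2 fold change 0.56 ± 0.19, adjusted p = 0.0923). For cyc the levels were 44.3 and 40.0 CPM in orco2 heads, against 42.9 and 42.6 CPM in w1118 heads, and the groups overlapped. In all, 5 of 8 core clock genes fell and 0 rose, with a median of -0.93, against 4.89% of all features that fell. Under the omission of each day 40 library in turn, the calls of tim, vri, per and cwo held in all 4 fits, while Pdp1 lost the call in at least 1. With the length offset the median was -0.59, and 4 genes were lower and 1, Clk, higher, since Pdp1 no longer passed (-0.38).

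**Figure D2:**
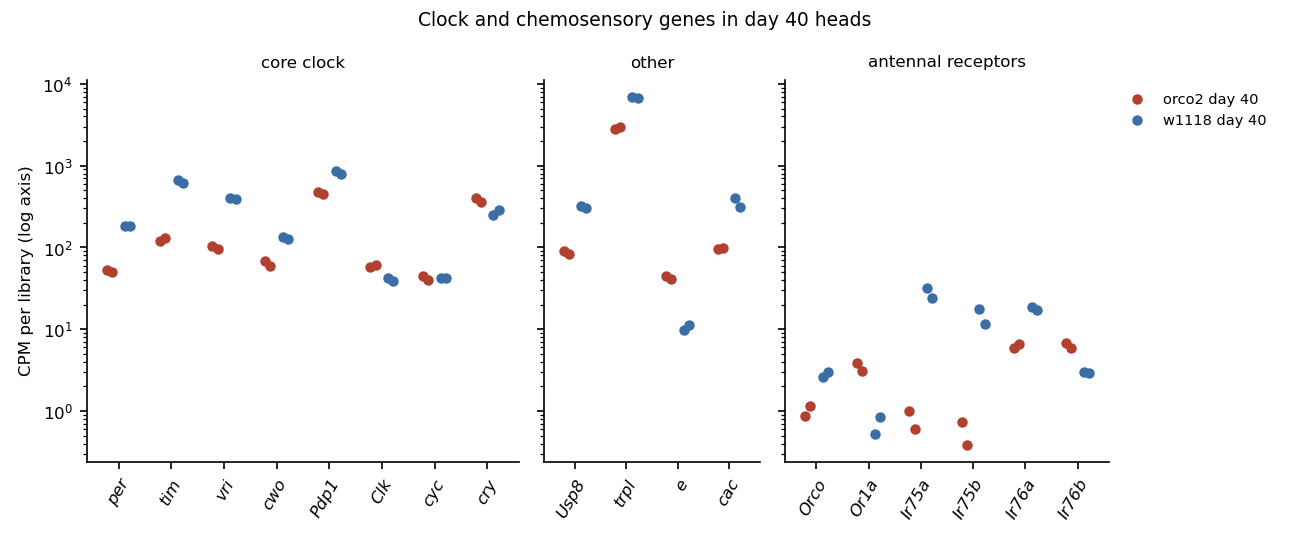
Levels in CPM (log axis) in each of the 2 orco2 (red) and 2 w1118 (blue) day 40 head libraries for core clock genes, for 4 other genes named in the text and for antennal receptor genes. Both orco2 points lie below both w1118 points for per, tim, vri, cwo, Pdp1, Usp8, trpl, cac, Orco, Ir75a, Ir75b and Ir76a, and above them for Clk, cry, e, Or1a and Ir76b.

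The kinases, phosphatases and turnover factors that act on PER and TIM had 0 of 12 called and a median of -0.08. Of these, 4 had an unadjusted p under 0.05 in edgeR. At the adjusted threshold the DESeq2 Wald test and limma-voom also called 0. The fit of the day 40 libraries alone called 1 higher and 3 lower, and those without 1 or the other orco2 library of day 3 called 1 higher and 5 lower and 2 higher and 3 lower. Another gene tied to the clock was among the 12 features with the smallest p. Usp8 (FBgn0038862, chromosome 3R, 21134262 to 21138214), whose product removes ubiquitin from CLK, was at 89.6 and 84.3 CPM in orco2 heads, against 323 and 302 CPM in w1118 heads (log2 fold change -1.85 ± 0.10, adjusted p = 0.000117). The 8 listed head genes known to cycle under the clock were mixed, and 2 rose, 4 fell and 2 did not pass. Of these 25% rose and 50% fell, against 8.06% and 4.89% of all features. The light-sensitive channel gene trpl fell, with 2801 and 2973 CPM in orco2 heads, against 6845 and 6659.6 CPM in w1118 heads (log2 fold change -1.23 ± 0.09, adjusted p = 0.00041). The steroid hydroxylase gene Cyp18a1 (-1.39 ± 0.21), the potassium channel regulator gene Slob (-0.64 ± 0.11) and the tyrosine catabolism gene Hpd (-0.91 ± 0.19) fell too. The glycosyltransferase gene Ugt35B1 rose, with 237 and 188 CPM in orco2 heads, against 41 and 52.1 CPM in w1118 heads (log2 fold change 2.19 ± 0.25, adjusted p = 0.00207), as did the monooxygenase gene Fmo-2 (1.33 ± 0.21). The gene ebony (e), which encodes the glial enzyme that couples amines to beta-alanine, rose too, with 45.3 and 41.4 CPM in orco2 heads, against 9.92 and 11.2 CPM in w1118 heads (log2 fold change 2.04 ± 0.15, adjusted p = 0.00042). Achl, which is named here after its value was seen, had 51.5 and 51.3 CPM in orco2 heads, against 3.84 and 4.52 CPM in w1118 heads (log2 fold change 3.62 ± 0.21, adjusted p = 0.000117). When the day 40 libraries were left out one at a time, the calls of Usp8, trpl, Ugt35B1, e and Achl held in all 4 fits, while Cyp18a1, Slob, Hpd and Fmo-2 lost theirs in at least 1.

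Odorant receptor genes did not fall as a family, while most called ionotropic receptor genes were lower. Odorant receptor transcripts are scarce in whole heads, and of 60 genes, 20 were tested. Of these, 3 rose, 1 fell and 16 did not pass, and the median was 0.07. The share that rose was 15% and the share that fell 5%, against 8.06% and 4.89% of all features. Besides Orco, which was the 1 that fell, Or1a had 3.85 and 3.07 CPM in orco2 heads, against 0.519 and 0.840 CPM in w1118 heads (log2 fold change 2.34 ± 0.43, adjusted p = 0.0134) and Or42a had 0.690 and 1.20 CPM in orco2 heads, against 0.115 and 0.145 CPM in w1118 heads (log2 fold change 2.82 ± 0.57, adjusted p = 0.0181). Or69a had 26 counts in orco2 heads and 0 in w1118 heads, which is at least 10.7-fold higher. These levels were at or below 4 CPM in every library. In the 4 fits that each lacked 1 day 40 library, Orco, Or1a, Or42a and Or69a each lost the call in at least 1. Ionotropic receptors, the second family of olfactory receptors, detect acids and amines without Orco. Of 66 ionotropic receptor genes, 21 were tested, and 1 rose, 5 fell and 15 did not pass. The share that fell was 23.8%, against 4.89% of all features, and the share that rose 4.76%, against 8.06%. Their median log2 fold change was 0.0082. Ir75a, which encodes an acid receptor of the antenna, was at 1.02 and 0.600 CPM in orco2 heads, against 32.0 and 24.3 CPM in w1118 heads (log2 fold change -5.12 ± 0.46, adjusted p = 0.00072). Its neighbour Ir75b was at 0.726 and 0.388 CPM in orco2 heads, against 17.8 and 11.7 CPM in w1118 heads (log2 fold change -4.72 ± 0.37, adjusted p = 0.000477), and reads of these similar genes may be shared. Ir76a (-1.52 ± 0.21), Ir68a (-0.77 ± 0.21) and Ir100a (-3.04 ± 0.73) fell as well, the last with under 2 CPM in every library. The co-receptor gene Ir76b rose, with 6.75 and 5.86 CPM in orco2 heads, against 2.97 and 2.93 CPM in w1118 heads (log2 fold change 1.10 ± 0.21, adjusted p = 0.0153). With each day 40 library left out in turn, the calls of Ir75a and Ir75b held in all 4 fits, while Ir76a, Ir68a, Ir100a and Ir76b lost theirs in at least 1.

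Odorant binding proteins, small secreted proteins of sensory hairs and other tissues, were more often higher. Of 52 genes, 33 were tested, and 7 rose, 3 fell and 23 did not pass, with a median of 0.76, or 0.50 with the length offset, under which 5 were higher and 4 lower. Without the offset 21.2% rose and 9.09% fell, against 8.06% and 4.89% of all features. Obp8a had 24.9 and 26.8 CPM in orco2 heads, against 3.87 and 4.75 CPM in w1118 heads (log2 fold change 2.58 ± 0.16, adjusted p = 0.00019). Obp44a had 1148 and 1027 CPM in orco2 heads, against 378 and 455 CPM in w1118 heads (log2 fold change 1.38 ± 0.15, adjusted p = 0.00171), and Obp99c had 1722 and 1439 CPM in orco2 heads, against 308 and 495 CPM in w1118 heads (log2 fold change 1.98 ± 0.31, adjusted p = 0.00726). In the other direction Obp56h stood at 4.32 and 4.80 CPM in orco2 heads, against 14.4 and 16.1 CPM in w1118 heads (log2 fold change -1.74 ± 0.26, adjusted p = 0.00595), and Obp19c (-0.85 ± 0.15) and Obp99a (-2.08 ± 0.53) fell too. Obp18a (1.15 ± 0.19), Obp49a (0.78 ± 0.16) and Obp57a (2.14 ± 0.30) rose, so the calls of this family ran both ways. The lists of gustatory receptors and of olfactory support genes had 1 called member each, or 5% and 20%, against 13.0% over all features. Gr64a, a sugar receptor gene, had 1.09 and 1.38 CPM in orco2 heads, against 0.0577 and 0.0869 CPM in w1118 heads (log2 fold change 4.02 ± 0.80, adjusted p = 0.0178), 1 of 20 tested. The antennal gene a10 had 23.5 and 16.3 CPM in orco2 heads, against 6.87 and 7.39 CPM in w1118 heads (log2 fold change 1.48 ± 0.30, adjusted p = 0.018), 1 of 5 tested. The count of odorant binding protein genes that rose was 3 without orco2 replicate 1, 5 without orco2 replicate 2, 3 without w1118 replicate 1 and 5 without w1118 replicate 2. Across the fits without 1 of the day 40 libraries, the calls of Obp8a, Obp44a and Obp57a held in all of them, while Obp99c, Obp56h, Obp19c, Obp99a, Obp18a, Obp49a, Gr64a and a10 lost theirs in at least 1.

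Vision genes had calls in both directions. Phototransduction genes numbered 30 tested, with 3 higher and 3 lower, with a median of 0.00. This was 10% in each direction, against 8.06% higher and 4.89% lower over all features. The scaffold gene inaD had 1074 and 1028 CPM in orco2 heads, against 654 and 696 CPM in w1118 heads (log2 fold change 0.64 ± 0.10, adjusted p = 0.00578). The retinoid-binding protein gene pinta (1.02 ± 0.13) and the carotenoid uptake gene ninaD (3.56 ± 0.49) rose. Besides trpl, the spacemaker gene eys (-0.45 ± 0.10) and the rhodopsin phosphatase gene rdgC (-0.49 ± 0.12) fell, and neither passed with the length offset, under which 7 members were higher and 1 lower. Of 7 rhodopsin genes, Rh4, of yellow R7 cells, had 3312 and 3367 CPM in orco2 heads, against 2134 and 2287 CPM in w1118 heads (log2 fold change 0.60 ± 0.11, adjusted p = 0.0114). Rh5, of pale R8 cells, had 606 and 613 CPM in orco2 heads, against 1119 and 959 CPM in w1118 heads (log2 fold change -0.77 ± 0.15, adjusted p = 0.0169). The main rhodopsin gene ninaE was at 47758 and 45710.2 CPM in orco2 heads, against 48741 and 52224 CPM in w1118 heads, and the groups did not overlap, but it did not pass (log2 fold change -0.11 ± 0.13, adjusted p = 0.629). Eye pigment genes numbered 19 tested, and 4 rose, 2 fell and 13 did not pass. Here 21.1% rose and 10.5% fell, against 8.06% and 4.89% of all features. Next to w, the ommochrome enzyme gene v (1.32 ± 0.21) and the pterin pathway genes Hn (1.49 ± 0.26) and ry (0.74 ± 0.20) rose. The pterin enzyme gene se (-0.93 ± 0.15) and bw (-0.55 ± 0.12), which encodes a transporter partner of the w product, fell. Under the omission of each day 40 library in turn, the call of ninaD held in all 4 fits, while inaD, pinta, eys, rdgC, Rh4, Rh5, v, Hn, ry, se and bw lost theirs in at least 1.

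Calls among neuropeptide receptor, synapse and channel genes were lower in orco2, and these lists hold long genes. The peptide genes, with a median exon length of 1.10 kb, are short. The summed neuronal markers were lower as well, at 2447 and 2552 CPM in orco2 heads and 3312 and 3018 CPM in w1118 heads, and their part in these counts was not tested. The products of these genes let neurons release transmitters and peptides, receive them and fire. Of 34 neuropeptide receptor genes 0 rose, 8 fell and 26 did not pass, with a median of -0.31. Those that fell made up 23.5%, against 4.89% of all features. The myosuppressin receptor gene MsR1 had 9.59 and 8.68 CPM in orco2 heads, against 27.2 and 27.7 CPM in w1118 heads (log2 fold change -1.59 ± 0.19, adjusted p = 0.00212). The allatostatin C receptor gene AstC-R1 had 15.9 and 17.8 CPM in orco2 heads, against 40.4 and 33.6 CPM in w1118 heads (log2 fold change -1.14 ± 0.15, adjusted p = 0.00382). The sex peptide receptor gene SPR (-0.62 ± 0.11), Dh44-R2 (-0.73 ± 0.15), Dh44-R1 (-0.58 ± 0.13) and SIFaR (-0.51 ± 0.12) followed. With the length offset 5 receptor genes were lower and 1 higher. Of 36 tested peptide genes 4 rose, 1 fell and 31 did not pass, a called share of 13.9% against 13.0% over all features. With the length offset 3 peptide genes were higher and 5 lower. The count of peptide genes that rose was 2 without orco2 replicate 1, 2 without orco2 replicate 2, 1 without w1118 replicate 1 and 3 without w1118 replicate 2. Eh, the eclosion hormone gene, was at 17.4 and 12.4 CPM in orco2 heads, against 0.173 and 0.551 CPM in w1118 heads (log2 fold change 5.35 ± 0.45, adjusted p = 0.000557). The insulin-like peptide gene Ilp6 (1.03 ± 0.14), made in fat body, and Nplp2 (1.53 ± 0.32) and Capa (0.54 ± 0.12) rose, while FMRFa (-0.54 ± 0.12) fell. The clock neuron peptide gene Pdf was at 227 and 206 CPM in orco2 heads, against 264 and 282 CPM in w1118 heads and did not pass (log2 fold change -0.33 ± 0.16, adjusted p = 0.214). The count of receptor genes that fell was 1 without orco2 replicate 1, 2 without orco2 replicate 2, 2 without w1118 replicate 1 and 2 without w1118 replicate 2. When the day 40 libraries were left out one at a time, the calls of MsR1 and Eh held in all 4 fits, while AstC-R1, SPR, Dh44-R2, Dh44-R1, SIFaR, Ilp6, Nplp2, Capa and FMRFa lost theirs in at least 1.

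The synapse list had 27 tested genes, with 0 higher and 3 lower, with a median of -0.32. Its share that fell was 11.1%, against 4.89% of all features, while the called share over all features was 13.0%. The calcium channel gene cac, which triggers transmitter release, had 94.6 and 99.1 CPM in orco2 heads, against 400.2 and 316 CPM in w1118 heads (log2 fold change -1.89 ± 0.21, adjusted p = 0.00171). The microtubule gene futsch (-0.76 ± 0.19) and the active zone gene brp (-0.70 ± 0.18) also fell. Of 32 ion channel genes 0 rose, 6 fell and 26 did not pass, with a median of -0.46. Here 18.75% fell, against 4.89% of all features. Those that fell were the potassium channel genes Shab (-0.92 ± 0.24) and Elk (-0.74 ± 0.17), the calcium channel gene Ca-alpha1T (-0.62 ± 0.16), the sodium leak channel gene na (-0.54 ± 0.12) and the channel partners Teh1 (-0.53 ± 0.13) and Ca-Ma2d (-0.50 ± 0.10). The median exon length of these lists was 6.01 kb and 6.27 kb, against 2.32 kb over the 8007 protein-coding genes. With the length offset the synapse median was -0.06, with 1 higher and 1 lower (cac, -1.43), and the channel median was -0.14, with 1 lower. The channel count was 0 without orco2 replicate 1, 0 without orco2 replicate 2, 0 without w1118 replicate 1 and 1 without w1118 replicate 2. Of 42 transmitter genes 2 rose, 2 fell and 38 did not pass. This was 4.76% in each direction, against 8.06% higher and 4.89% lower over all features. With the offset 2 were higher and 1 lower. The dopamine receptor gene Dop2R had 82.1 and 103 CPM in orco2 heads, against 50.1 and 40.8 CPM in w1118 heads (log2 fold change 1.03 ± 0.15, adjusted p = 0.00488), and the histamine synthesis gene Hdc (0.38 ± 0.10) rose. The serotonin transporter gene SerT (-0.56 ± 0.11) and the acetylcholinesterase gene Ace (-0.49 ± 0.13) fell. In the 4 fits that each lacked 1 day 40 library, the calls of cac and Dop2R held in all of them, while futsch, brp, Shab, Elk, Ca-alpha1T, na, Teh1, Ca-Ma2d, Hdc, SerT and Ace lost theirs in at least 1.

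Smaller lists of neural and support genes had shares of called members near the 13.0% over all features, at 16.7% for glia, 10% for sleep, 13.3% for the chordotonal organ and 11.1% for muscle. Of 18 genes in the glial list 2 rose, 1 fell and 15 did not pass. Next to e, the peptidase gene ome (0.72 ± 0.10) rose. The member that fell, CarT (-0.73 ± 0.15), is a carcinine transporter gene known from photoreceptors. Among 10 sleep genes 0 rose, 1 fell and 9 did not pass. This was Shab, which did not pass with the length offset. The chordotonal organ is the stretch and hearing organ, and its list was added after values were seen. Among its 15 tested genes 0 rose, 2 fell and 13 did not pass. These were the ciliary dynein heavy chain genes Dhc93AB, at 3.23 and 4.20 CPM in orco2 heads, against 18.3 and 21.2 CPM in w1118 heads (log2 fold change -2.41 ± 0.20, adjusted p = 0.000545), and Dhc98D, at 4.65 and 4.62 CPM in orco2 heads, against 20.3 and 18.3 CPM in w1118 heads (log2 fold change -2.05 ± 0.19, adjusted p = 0.0009). Of 27 muscle genes 2 rose, 1 fell and 24 did not pass. With the offset 0 were higher and 1 lower. Mlc1 (0.55 ± 0.10) and Act57B (0.51 ± 0.13) rose and Strn-Mlck (-0.49 ± 0.11) fell, and Strn-Mlck changed sign with the length offset (0.17, not called). With each day 40 library left out in turn, the calls of ome, Dhc93AB and Dhc98D held in all 4 fits, while CarT, Mlc1, Act57B and Strn-Mlck lost theirs in at least 1.

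**Figure D3:**
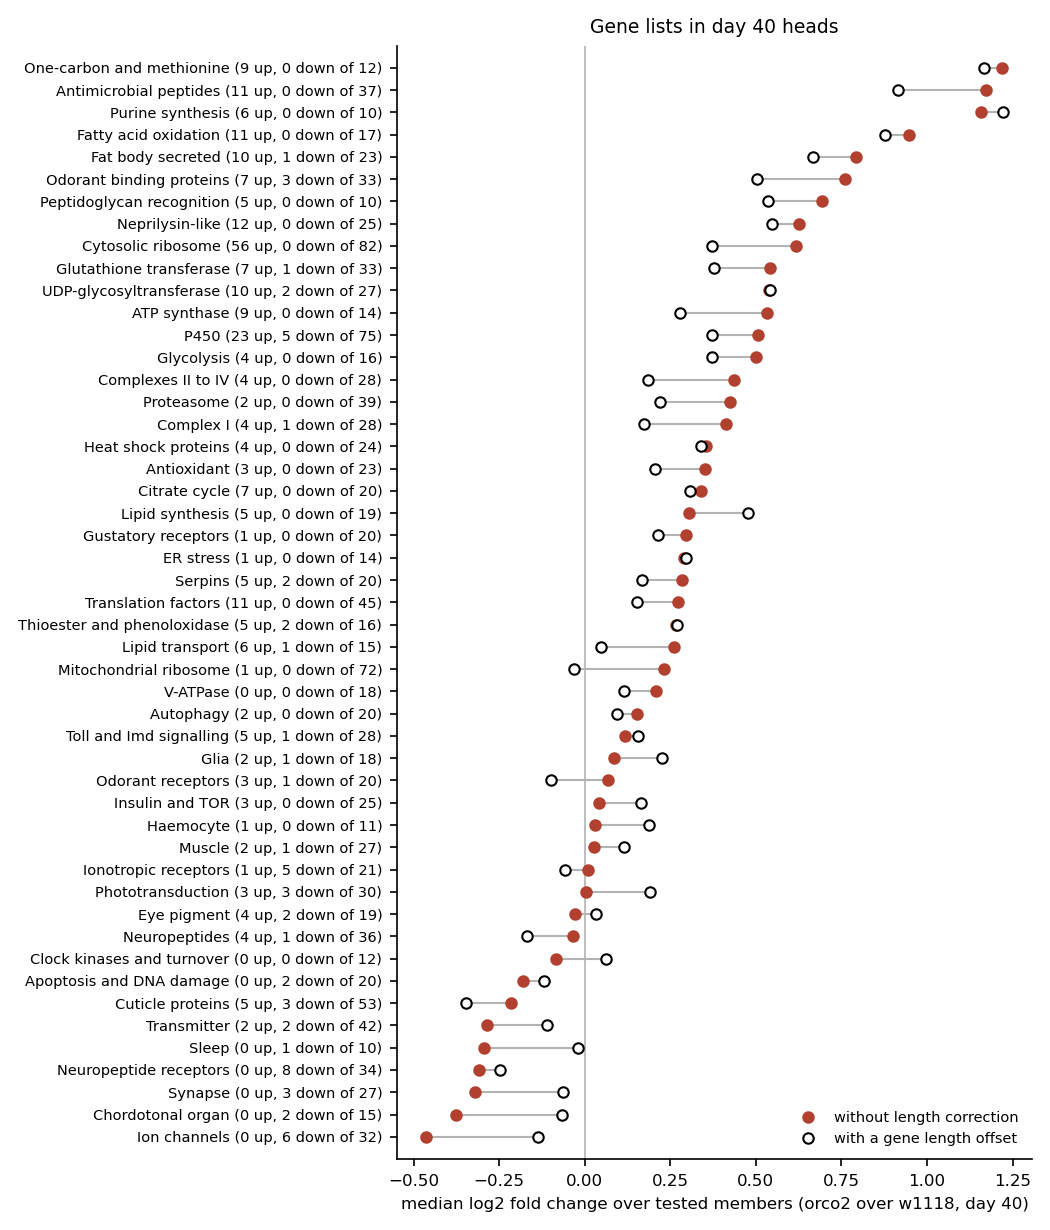
Median log2 fold change (orco2 over w1118, day 40 heads) over the tested members of each gene list with at least 10 tested members, without correction (red) and with the gene length offset (open), with the counts called higher and lower in brackets; the gut enzyme and sugar digestion lists, led by genes high in w1118 replicate 2, are not drawn. One-carbon, purine and fatty acid oxidation lists stay near 1 under both fits, whereas the synapse median is -0.32 without and -0.06 with the offset and the ion channel median -0.46 and -0.14. The one-carbon, purine, neprilysin, serpin and chordotonal organ lists were added after values were seen, so their medians depend on that choice.

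Most genes of the cytosolic ribosome, which makes protein, rose in orco2. Of 85 such genes, 82 were tested, and 56 rose, 0 fell and 26 did not pass, with a median of 0.62 against -0.0017 over all features. Those that rose made up 68.3%, against 8.06% of all features. RpS21 had 608 and 604 CPM in orco2 heads, against 276 and 336 CPM in w1118 heads (log2 fold change 0.99 ± 0.15, adjusted p = 0.00688). RpS13 had 1209.8 and 1164 CPM in orco2 heads, against 649 and 774 CPM in w1118 heads (log2 fold change 0.74 ± 0.12, adjusted p = 0.00787), and RpL35A had 1107 and 1015 CPM in orco2 heads, against 579 and 691 CPM in w1118 heads (log2 fold change 0.74 ± 0.12, adjusted p = 0.00793). RpL27A (0.82 ± 0.13), RpS3 (0.79 ± 0.13) and RpL13 (0.67 ± 0.11) were next by p. These genes are short, with a median exon length of 0.909 kb, and with the length offset 32 of 82 rose with a median of 0.37. The count was 0 without orco2 replicate 1, 6 without orco2 replicate 2, 0 without w1118 replicate 1 and 30 without w1118 replicate 2. Among 45 tested translation factor genes 11 rose, 0 fell and 34 did not pass. Here 24.4% rose, against 8.06% of all features. The elongation factor genes eEF1beta (1.5 ± 0.23), eEF1alpha1 (0.88 ± 0.16) and eEF1gamma (0.84 ± 0.14) and the initiation factor genes eIF1 (0.55 ± 0.11), eIF3k (0.58 ± 0.10) and eIF4E3 (3.21 ± 0.66) rose, with 5 of the 45 still higher under the offset. Mitochondrial ribosomal protein genes, also short, had 1 called of 72 (mRpL39, 0.67 ± 0.13), a median of 0.23 and a median of -0.03 with the offset. Their called share was 1.39%, against 13.0% over all features. Across the fits without 1 of the day 40 libraries, RpS21, RpS13, RpL35A, RpL27A, RpS3, RpL13, eEF1beta, eEF1alpha1, eEF1gamma, eIF1, eIF3k, eIF4E3 and mRpL39 each lost the call in at least 1.

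Genes of energy metabolism that rose did so by less than 2-fold in most cases. They made up 64.3% of ATP synthase genes and 14.3% each of complex I and of complexes II to IV. For the citrate cycle 35% rose and for glycolysis 25%, against 8.06% of all features. Of 14 ATP synthase genes 9 rose, 0 fell and 5 did not pass, among them ATPsynC at 2073 and 1957 CPM in orco2 heads, against 1412 and 1453 CPM in w1118 heads (log2 fold change 0.49 ± 0.09, adjusted p = 0.0132), and 4 rose with the length offset. The other 8 were ATPsynbeta (0.53 ± 0.11), ATPsyngamma (0.56 ± 0.14), ATPsyndelta (0.58 ± 0.12), ATPsynO (0.59 ± 0.16), ATPsynD (0.54 ± 0.12), ATPsynE (0.55 ± 0.13), ATPsynF (0.52 ± 0.14) and ATPsynCF6 (0.55 ± 0.12). Complex I had 4 higher and 1 lower of 28, and complexes II to IV had 4 higher and 0 lower of 28. With the offset these were 1 and 1 for complex I and 0 and 0 for complexes II to IV. ND-13A (0.78 ± 0.15) and ND-13B (0.69 ± 0.14) led complex I, with ND-42 (0.49 ± 0.10) and ND-ACP (0.50 ± 0.13), and RFeSP (0.51 ± 0.11), Cyt-c1 (0.46 ± 0.11), COX5B (0.49 ± 0.12) and COX6B (0.45 ± 0.11) were the genes of complexes II to IV. ND-51L2, a second copy of the NADH-binding subunit gene, had 0 counts in orco2 against 59 in w1118 (at least 15.9-fold lower). Citrate cycle genes numbered 20, and 7 rose, 0 fell and 13 did not pass, with 8 higher under the offset. The cytosolic malate dehydrogenase gene Mdh1 had 1141 and 961 CPM in orco2 heads, against 443 and 578 CPM in w1118 heads (log2 fold change 1.04 ± 0.24, adjusted p = 0.0275). Idh (0.89 ± 0.17), ScsbetaA (0.88 ± 0.21), Men (0.87 ± 0.18), Scsalpha1 (0.79 ± 0.16), Mdh2 (0.70 ± 0.12) and mAcon1 (0.36 ± 0.09) rose as well. Of 16 glycolysis genes 4 rose, 0 fell and 12 did not pass, led by the enolase gene Eno (0.72 ± 0.12) and the aldolase gene Ald1 (0.51 ± 0.09), with Gapdh1 (0.53 ± 0.12) and Gapdh2 (0.49 ± 0.11). The citrate cycle count was 0 without orco2 replicate 1, 0 without orco2 replicate 2, 0 without w1118 replicate 1 and 4 without w1118 replicate 2, and that of ATP synthase was 0 without orco2 replicate 1, 0 without orco2 replicate 2, 0 without w1118 replicate 1 and 5 without w1118 replicate 2. Under the omission of each day 40 library in turn, all the ATP synthase genes named here lost the call in at least 1. So did ND-13A, ND-13B, ND-42, ND-ACP, ND-51L2, RFeSP, Cyt-c1, COX5B and COX6B. Mdh1, Idh, ScsbetaA, Men, Scsalpha1, Mdh2, mAcon1, Eno, Ald1, Gapdh1 and Gapdh2 each lost the call in at least 1 as well.

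Purine synthesis and the one-carbon cycle that feeds it with formyl groups were higher along most of their steps. Both lists were added after values were seen. Of 10 purine genes 6 rose, 0 fell and 4 did not pass, with a median of 1.16, or 1.22 with the length offset. Those that rose made up 60%, against 8.06% of all features. Prps (FBgn0036030, chromosome 3L, 9683579 to 9696700), which makes the phosphoribosyl donor, had 733 and 655 CPM in orco2 heads, against 248 and 272 CPM in w1118 heads (log2 fold change 1.42 ± 0.12, adjusted p = 0.000545). Prat2, whose product commits it to purines, had 417 and 405 CPM in orco2 heads, against 98.2 and 139 CPM in w1118 heads (log2 fold change 1.79 ± 0.27, adjusted p = 0.00559). Paics, further along, had 1030.2 and 928 CPM in orco2 heads, against 227 and 318 CPM in w1118 heads (log2 fold change 1.85 ± 0.23, adjusted p = 0.00277), and Adsl had 209.8 and 212 CPM in orco2 heads, against 60.3 and 72.0 CPM in w1118 heads (log2 fold change 1.67 ± 0.15, adjusted p = 0.000721). Gart (1.79 ± 0.26) and Pfas (0.90 ± 0.24) also rose. The guanine branch genes bur and ras, the adenine branch gene Adss and the second amidotransferase gene Prat did not pass. Of 12 one-carbon and methionine genes 9 rose, 0 fell and 3 did not pass, with a median of 1.22 (1.17 with the offset). Here 75% rose, against 8.06% of all features. Shmt, which moves a carbon from serine to folate, had 680.3 and 639 CPM in orco2 heads, against 155 and 212 CPM in w1118 heads (log2 fold change 1.85 ± 0.19, adjusted p = 0.00135). The folate enzyme gene Nmdmc had 62.6 and 84.2 CPM in orco2 heads, against 18.7 and 18.8 CPM in w1118 heads (log2 fold change 1.97 ± 0.18, adjusted p = 0.000721), and pug (1.44 ± 0.25) rose with it. All of these belong to the carbon transfer steps, and the methionine side moved the same way. Gnmt, whose product uses up S-adenosylmethionine, had 416 and 455 CPM in orco2 heads, against 63.5 and 68.7 CPM in w1118 heads (log2 fold change 2.72 ± 0.32, adjusted p = 0.00216), and Sam-S, which makes it, had 653 and 599 CPM in orco2 heads, against 291 and 301 CPM in w1118 heads (log2 fold change 1.08 ± 0.10, adjusted p = 0.000956). Sardh (1.63 ± 0.24), Ahcy (0.90 ± 0.13), Cth (0.72 ± 0.15) and Mtap (0.72 ± 0.18) rose as well. The purine count was 5 without orco2 replicate 1, 5 without orco2 replicate 2, 3 without w1118 replicate 1 and 5 without w1118 replicate 2, and the one-carbon count 5 without orco2 replicate 1, 5 without orco2 replicate 2, 4 without w1118 replicate 1 and 8 without w1118 replicate 2. When the day 40 libraries were left out one at a time, the calls of Prps, Paics, Adsl, Shmt, Nmdmc, Gnmt and Sam-S held in all 4 fits, while Prat2, Gart, Pfas, pug, Sardh, Ahcy, Cth and Mtap lost theirs in at least 1.

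**Figure D4:**
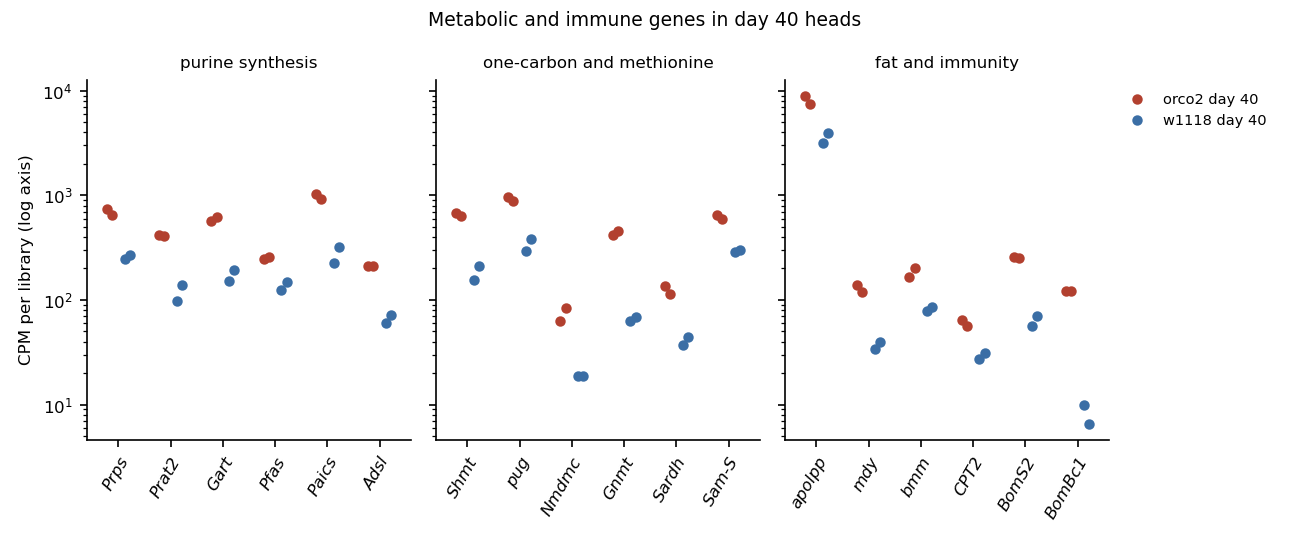
Levels in CPM (log axis) in each of the 2 orco2 (red) and 2 w1118 (blue) day 40 head libraries for purine synthesis genes, one-carbon and methionine genes, and a selection of fat body, lipid and immune genes. Both orco2 points lie above both w1118 points for each of the 18 genes drawn.

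Genes of lipid oxidation, storage and synthesis were among those that rose, and none of these 3 lists had a member that fell. In that order 64.7%, 66.7% and 26.3% rose, against 8.06% of all features. Of 17 fatty acid oxidation genes 11 rose, 0 fell and 6 did not pass, with a median of 0.95 and 0.88 with the length offset. The carnitine acyltransferase gene CPT2 had 64.8 and 56.3 CPM in orco2 heads, against 27.1 and 30.8 CPM in w1118 heads (log2 fold change 1.06 ± 0.12, adjusted p = 0.00212), and its partner whd (0.88 ± 0.14) rose. Etf-QO (1.06 ± 0.17), Arc42 (1.05 ± 0.17), Echs1 (1.38 ± 0.26), Mtpbeta (0.95 ± 0.17), Acox57D-p (1.25 ± 0.24), colt (1.0 ± 0.23), yip2 (1.06 ± 0.26), Acsl (0.70 ± 0.18) and scu (1.03 ± 0.28) rose as well. Of 9 storage and lipolysis genes 6 rose, 0 fell and 3 did not pass. The triglyceride lipase gene bmm had 165 and 202 CPM in orco2 heads, against 79.0 and 85.3 CPM in w1118 heads (log2 fold change 1.16 ± 0.14, adjusted p = 0.00223), and the perilipin gene Lsd-2 had 553 and 546 CPM in orco2 heads, against 245 and 301 CPM in w1118 heads (log2 fold change 1.01 ± 0.13, adjusted p = 0.00302). Lsd-1 (0.99 ± 0.27), Jabba (0.96 ± 0.22), Seipin (0.90 ± 0.23) and Lip4 (1.13 ± 0.24) rose too. Among 19 lipid synthesis genes 5 rose, 0 fell and 14 did not pass, with mdy, the diacylglycerol acyltransferase gene, at 138 and 119 CPM in orco2 heads, against 34.1 and 39.9 CPM in w1118 heads (log2 fold change 1.80 ± 0.18, adjusted p = 0.000987). The desaturase gene Desat1 (1.21 ± 0.23), the fatty acid synthase gene FASN1 (1.0 ± 0.19), AcCoAS (0.84 ± 0.16) and Agpat3 (0.61 ± 0.13) were the others. The oxidation count was 1 without orco2 replicate 1, 4 without orco2 replicate 2, 1 without w1118 replicate 1 and 7 without w1118 replicate 2, and that of storage 2 without orco2 replicate 1, 2 without orco2 replicate 2, 2 without w1118 replicate 1 and 4 without w1118 replicate 2. In the 4 fits that each lacked 1 day 40 library, the calls of CPT2, bmm, Lsd-2 and mdy held in all of them, while whd, Etf-QO, Arc42, Echs1, Mtpbeta, Acox57D-p, colt, yip2, Acsl, scu, Lsd-1, Jabba, Seipin, Lip4, Desat1, FASN1, AcCoAS and Agpat3 lost theirs in at least 1.

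The head holds a layer of fat body, the tissue that stores lipid and secretes blood proteins, and some genes listed as its secreted products rose too. Of 24 genes, 23 were tested, and 10 rose, 1 fell and 12 did not pass, with a median of 0.79. Here 43.5% rose and 4.35% fell, against 8.06% and 4.89% of all features. The summed level of the list was 14139.7 and 12032 CPM in orco2 against 6254 and 7218 CPM in w1118. The storage protein gene Lsp2 had 236 and 271 CPM in orco2 heads, against 19.8 and 32.9 CPM in w1118 heads (log2 fold change 3.26 ± 0.56, adjusted p = 0.01). The clotting gene fon had 244 and 226 CPM in orco2 heads, against 57.3 and 69.4 CPM in w1118 heads (log2 fold change 1.89 ± 0.17, adjusted p = 0.000654), and the growth factor genes Idgf5 (1.84 ± 0.29), Idgf6 (1.40 ± 0.25) and Idgf3 (0.83 ± 0.14) rose. The hormone gene Lst, which lowers insulin release and stands in this list although it is known from the corpora cardiaca, had 235 and 194 CPM in orco2 heads, against 64.9 and 93.5 CPM in w1118 heads (log2 fold change 1.44 ± 0.18, adjusted p = 0.00295). The yolk protein gene Yp3 (-0.78 ± 0.14) fell. Of 18 lipid transport genes, 15 were tested, and 6 rose, 1 fell and 8 did not pass. For this list 40% rose and 6.67% fell, against 8.06% and 4.89% of all features. The lipoprotein precursor gene apolpp had 8837 and 7477 CPM in orco2 heads, against 3174 and 3932 CPM in w1118 heads (log2 fold change 1.20 ± 0.20, adjusted p = 0.00938), and Apoltp (0.71 ± 0.12), Mtp (1.03 ± 0.15), GLaz (0.82 ± 0.13), Npc2h (1.67 ± 0.24) and Npc2g (1.30 ± 0.29) rose with it. The receptor gene LpR1 (-0.43 ± 0.11) fell, but not with the length offset. Of the 5 fat body markers, apolpp and Lsp2 rose, and Yp1, Yp2 and Fbp1 did not pass. These levels move with the lipid, immune and detoxification groups, many of whose genes fat body expresses, and the part of fat body amount in them was not tested. The count of secreted products was 2 without orco2 replicate 1, 4 without orco2 replicate 2, 2 without w1118 replicate 1 and 6 without w1118 replicate 2. With each day 40 library left out in turn, the calls of fon, Lst and Npc2h held in all 4 fits, while Lsp2, Idgf5, Idgf6, Idgf3, Yp3, apolpp, Apoltp, Mtp, GLaz, Npc2g and LpR1 lost theirs in at least 1.

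Detoxification families held some of the largest changes. Of 82 cytochrome P450 genes, 75 were tested, and 23 rose, 5 fell and 47 did not pass, with a median of 0.51, and the counts were the same with the length offset. Cyp6a8 had 361 and 796 CPM in orco2 heads, against 7.24 and 6.40 CPM in w1118 heads (log2 fold change 6.41 ± 0.55, adjusted p = 0.000617). The adjacent copies Cyp12d1-d and Cyp12d1-p had log2 fold changes of 7.88 ± 0.77 and 4.62 ± 0.34, and since they are near-identical, the split of reads between them is uncertain. Cyp304a1 (4.81 ± 0.41), Cyp4e2 (2.12 ± 0.25) and Cyp309a2 (2.0 ± 0.21) rose. On the other side Cyp6a17 (FBgn0015714, chromosome 2R, 14873953 to 14875739), linked to temperature preference, had 2.32 and 1.45 CPM in orco2 heads, against 80.3 and 86.1 CPM in w1118 heads (log2 fold change -5.46 ± 0.36, adjusted p = 0.000266). Its neighbour Cyp6a23, named here after its value was seen, had 116 and 94.7 CPM in orco2 heads, against 19.1 and 16.3 CPM in w1118 heads (log2 fold change 2.57 ± 0.33, adjusted p = 0.00295). Reads of this similar pair may be shared. Cyp9f3 (-1.41 ± 0.16), Cyp4ac3 (-1.04 ± 0.18) and Cyp313a5 (-5.42 ± 0.90) fell. Of 35 glutathione transferase genes, 33 were tested, and 7 rose, 1 fell and 25 did not pass (5 higher and 2 lower with the offset), led by GstE1 at 123 and 168 CPM in orco2 heads, against 16.2 and 19.6 CPM in w1118 heads (log2 fold change 3.02 ± 0.22, adjusted p = 0.00041), with GstE8 (1.76 ± 0.25), GstE3 (1.14 ± 0.23), GstE9 (1.15 ± 0.28), GstD11 (1.08 ± 0.27) and GstS1 (0.81 ± 0.16) also higher and GstE4 (-1.95 ± 0.52) lower. Of 35 UDP-glycosyltransferase genes, 27 were tested, and 10 rose, 2 fell and 15 did not pass. Ugt37B1 had 84.9 and 75.0 CPM in orco2 heads, against 1.70 and 3.25 CPM in w1118 heads (log2 fold change 5.01 ± 0.40, adjusted p = 0.000509), and Ugt37A3 (2.73 ± 0.45), Ugt37D1 (0.94 ± 0.12), Ugt49B1 (1.07 ± 0.17) and Ugt49C1 (0.64 ± 0.10) also rose, while Ugt302K1 (-2.94 ± 0.34) and Ugt36E1 (-1.15 ± 0.12) fell. Antioxidant genes numbered 23 tested, and 3 rose, 0 fell and 20 did not pass, a called share of 13.0% against 13.0% over all features. Those that rose were the immune catalase gene Irc (1.44 ± 0.17), Prx3 (0.83 ± 0.11) and Prx6c (1.34 ± 0.33). Of P450, glutathione transferase and UDP-glycosyltransferase genes 30.7%, 21.2% and 37.0% rose, against 8.06% of all features. In the same order 6.67%, 3.03% and 7.41% fell, against 4.89%. Called higher P450 genes numbered 12 without orco2 replicate 1, 14 without orco2 replicate 2, 11 without w1118 replicate 1 and 15 without w1118 replicate 2. Across the fits without 1 of the day 40 libraries, the calls of Cyp6a8, Cyp12d1-d, Cyp12d1-p, Cyp304a1, Cyp4e2, Cyp309a2, Cyp6a17, Cyp6a23, Cyp9f3, GstE1, Ugt37B1, Ugt37D1, Ugt302K1, Ugt36E1, Irc and Prx3 held in all of them, while Cyp4ac3, Cyp313a5, GstE8, GstE3, GstE9, GstD11, GstS1, GstE4, Ugt37A3, Ugt49B1, Ugt49C1 and Prx6c lost theirs in at least 1.

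Some antimicrobial peptide genes rose in orco2. Of 40 peptide genes, 37 were tested, and 11 rose, 0 fell and 26 did not pass, with a median of 1.17. Those that rose made up 29.7%, against 8.06% of all features. The 11 belonged to the Bomanin, Baramicin and Daisho families, which are short peptides induced by Toll. BomBc1 had 121 and 122 CPM in orco2 heads, against 10 and 6.58 CPM in w1118 heads (log2 fold change 3.87 ± 0.41, adjusted p = 0.00138). BomS2 had 260.1 and 252 CPM in orco2 heads, against 56.8 and 70.5 CPM in w1118 heads (log2 fold change 2.01 ± 0.18, adjusted p = 0.000721), and BaraA1 had 41.9 and 39.1 CPM in orco2 heads, against 7.47 and 9.56 CPM in w1118 heads (log2 fold change 2.25 ± 0.19, adjusted p = 0.000561). BomS1 (1.03 ± 0.11), BomS3 (1.17 ± 0.13) and BomT2 (2.04 ± 0.20) came next by p. The Imd-type peptides were uneven between libraries and did not pass, with DptA at 402 and 222 CPM in orco2 heads, against 228 and 54.1 CPM in w1118 heads and DptB at 437 and 245 CPM in orco2 heads, against 153 and 57.9 CPM in w1118 heads (adjusted p = 0.581 for DptA and 0.329 for DptB). Of 13 peptidoglycan recognition genes, 10 were tested, and 5 rose, 0 fell and 5 did not pass. Here 50% rose, against 8.06% of all features. PGRP-SB1, which cuts the bacterial wall, had 871 and 523 CPM in orco2 heads, against 106 and 96.4 CPM in w1118 heads (log2 fold change 2.79 ± 0.32, adjusted p = 0.00207), and the sensor genes PGRP-SD (1.19 ± 0.23), PGRP-SA (0.86 ± 0.19) and PGRP-LC (0.62 ± 0.12) and their relative PGRP-LA (0.77 ± 0.12) rose. Of 28 signalling genes 5 rose, 1 fell and 22 did not pass. For this list 17.9% rose and 3.57% fell, against 8.06% and 4.89% of all features. The upstream protease gene modSP (0.87 ± 0.19), the Imd inhibitor gene pirk (0.94 ± 0.19), GNBP1 (0.78 ± 0.18), GNBP2 (0.62 ± 0.16) and Hayan (0.83 ± 0.21) rose, while imd itself fell to 30.6 and 27.0 CPM in orco2 heads, against 77.3 and 61.6 CPM in w1118 heads (log2 fold change -1.27 ± 0.16, adjusted p = 0.00248). Thioester, Nimrod and phenoloxidase genes gave 5 higher and 2 lower of 16, with Tep4 (1.19 ± 0.23), Tep2 (1.0 ± 0.22), NimB2 (1.31 ± 0.32), NimB4 (1.44 ± 0.34) and fon (1.89 ± 0.17) higher and Mcr (-0.57 ± 0.10) and Tep3 (-0.48 ± 0.13) lower. Serpins, protease inhibitors whose list was added after values were seen, gave 5 higher and 2 lower of 20, led by Spn42Da (1.10 ± 0.13) and Spn55B (-1.0 ± 0.12), with Spn43Ab (1.45 ± 0.20), Spn43Ad (0.89 ± 0.21), Spn75F (3.86 ± 0.57), Spn88Eb (1.84 ± 0.28) and Spn47C (-0.60 ± 0.16). In the thioester list 31.25% rose and 12.5% fell, and among serpins 25% rose and 10% fell. Over all features these shares were 8.06% and 4.89%. The peptide count was 6 without orco2 replicate 1, 7 without orco2 replicate 2, 6 without w1118 replicate 1 and 8 without w1118 replicate 2, and 8 with the length offset. Under the omission of each day 40 library in turn, the calls of BomBc1, BomS2, BaraA1, PGRP-SB1, imd, BomS1, BomS3, BomT2, Spn42Da, Spn55B and Spn43Ab held in all 4 fits, while PGRP-SD, PGRP-SA, PGRP-LC, PGRP-LA, modSP, pirk, GNBP1, GNBP2, Hayan, Tep4, Tep2, NimB2, NimB4, Mcr, Tep3, Spn43Ad, Spn75F, Spn88Eb and Spn47C lost theirs in at least 1.

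Of 27 heat shock and chaperone genes, 24 were tested, and 4 rose, 0 fell and 20 did not pass. The share that rose was 16.7%, against 8.06% of all features. With the day 40 libraries alone 9 higher and 1 lower were called, and without 1 or the other orco2 library of day 3 11 higher and 1 lower, and 12 higher and 1 lower. Hsp70Ab had 13.7 and 18.4 CPM in orco2 heads, against 0.404 and 0.464 CPM in w1118 heads (log2 fold change 5.20 ± 0.53, adjusted p = 0.00124), and its copy Hsp70Aa had 3.16 and 3.88 CPM in orco2 heads, against 0.202 and 0.145 CPM in w1118 heads (log2 fold change 4.31 ± 0.48, adjusted p = 0.00172). The other near-identical copies Hsp70Ba, Hsp70Bb, Hsp70Bbb and Hsp70Bc were between 1.53 and 3.56 CPM in orco2 and did not pass, and the split of reads among copies is uncertain. The small chaperone gene Hsp26 had 20.4 and 20.1 CPM in orco2 heads, against 6.95 and 5.62 CPM in w1118 heads (log2 fold change 1.69 ± 0.25, adjusted p = 0.00572), and Hsp68 (0.87 ± 0.12) rose. Of 14 genes of the endoplasmic reticulum stress response 1 rose (Pdi, 0.78 ± 0.17), a share of 7.14% against 8.06% of all features. For this list the DESeq2 Wald test called 4 higher and the fit of the day 40 libraries alone 6 higher. When the day 40 libraries were left out one at a time, the calls of Hsp70Ab, Hsp70Aa and Hsp26 held in all 4 fits, while Hsp68 and Pdi lost theirs in at least 1.

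Peptidases of the neprilysin type, whose list was added after values were seen, gave 12 higher and 0 lower of 25. Here 48% rose, against 8.06% of all features. Nepl12 had 32.9 and 33.0 CPM in orco2 heads, against 4.36 and 6.23 CPM in w1118 heads (log2 fold change 2.64 ± 0.21, adjusted p = 0.000502), and Nepl18 (1.74 ± 0.22), Nepl13 (1.69 ± 0.22), Nepl6 (1.71 ± 0.27) and Nepl14 (1.63 ± 0.22) rose, with Nep7 (1.0 ± 0.16). Of 125 cuticle protein genes, 53 were tested, and 5 rose, 3 fell and 45 did not pass, a called share of 15.1% against 13.0% over all features. With the length offset 2 were higher and 5 lower, and with the replicate block 2 higher and 3 lower. The count of cuticle genes that rose was 1 without orco2 replicate 1, 2 without orco2 replicate 2, 1 without w1118 replicate 1 and 2 without w1118 replicate 2, and 2 fell in each of these fits. Cpr11B (2.57 ± 0.29), Cpr47Ee (1.58 ± 0.39), Cpr51A (1.06 ± 0.19), Lcp65Ac (2.05 ± 0.48) and Cpr47Ea, with 14 counts in orco2 and 1 in w1118, were those higher. Cpr49Ae (-0.84 ± 0.18) and Cpr49Ag (-2.42 ± 0.20) fell, and Cpr62Bb, at 5.70 and 4.55 CPM in orco2 heads, against 25.9 and 28.9 CPM in w1118 heads, did so too (log2 fold change -2.42 ± 0.16, adjusted p = 0.000239). The proteasome had 2 higher and 0 lower of 39 (Rpt2 and Rpt1, 0.51 ± 0.13 and 0.49 ± 0.13), a share of 5.13% higher against 8.06% of all features. Its count of genes that rose was 14 by the DESeq2 Wald test, 25 with the day 40 libraries alone, 25 and 28 without 1 or the other orco2 library of day 3, 0 with the replicate block and 0 without any 1 day 40 library. Autophagy had 2 higher and 0 lower of 20 (ref(2)P and Atg18a, 0.47 ± 0.12 and 0.38 ± 0.10), a share of 10% higher against 8.06% of all features. The proton pump list had 0 called of 18, with 3 at an unadjusted p under 0.05 in edgeR. At the adjusted threshold the DESeq2 Wald test called 1 proton pump gene and limma-voom 0. The fit of the day 40 libraries alone called 4 proton pump genes higher. The insulin and TOR list had 3 higher and 0 lower of 25, with S6k (0.53 ± 0.14) and Rheb (0.38 ± 0.10) beside Ilp6. This was 12% higher, against 8.06% of all features. Apoptosis and DNA damage genes gave 0 higher and 2 lower of 20 (tefu and PolZ1, -0.66 ± 0.16 and -0.61 ± 0.13), and neither passed with the length offset. The 2 made up 10%, against 4.89% of all features that fell. JAK-STAT genes gave 1 higher and 0 lower of 8 (Stat92E, 0.67 ± 0.12), a share of 12.5% higher against 8.06% of all features. The Turandot stress peptides had 0 called of 4, with 0 at an unadjusted p under 0.05 in edgeR. The DESeq2 Wald test and limma-voom also called 0 Turandot genes at the adjusted threshold. Blood cell genes gave 1 higher and 0 lower of 11 (srp, 0.76 ± 0.19), a share of 9.09% higher against 8.06% of all features. Lists of male reproductive tissue gave 1 higher and 0 lower of 5 for testis (mia, 0.79 ± 0.19) and 0 higher and 1 lower of 8 for the accessory gland (lectin-46Cb, -1.01 ± 0.17). For testis 20% rose, against 8.06% of all features, and for the accessory gland 12.5% fell, against 4.89%. The Malpighian tubule list had 0 called of 6, with 1 at an unadjusted p under 0.05 in edgeR. The DESeq2 Wald test and limma-voom also called 0 tubule genes at the adjusted threshold, while the fit of the day 40 libraries alone called 1 lower. In the sugar digestion list, tobi, an alpha-glucosidase gene that dietary protein and insulin-type signals regulate, had 1.53 and 0.917 CPM in orco2 heads, against 102 and 196 CPM in w1118 heads (log2 fold change -6.93 ± 0.71, adjusted p = 0.00119). Mal-B2 (1.42 ± 0.19) and Mal-A5 (1.31 ± 0.14) rose. In the 4 fits that each lacked 1 day 40 library, the calls of Nepl12, Nepl18, Nepl13, Cpr11B, Cpr49Ag, Cpr62Bb, tobi, Mal-B2 and Mal-A5 held in all of them, while Nepl6, Nepl14, Nep7, Cpr47Ee, Cpr51A, Lcp65Ac, Cpr47Ea, Cpr49Ae, Rpt2, Rpt1, ref(2)P, Atg18a, S6k, Rheb, tefu, PolZ1, Stat92E, srp, mia and lectin-46Cb lost theirs in at least 1.

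Some of the widest differences were in features with counts in 1 of the 2 groups alone. CG3397 had 0 counts in both orco2 libraries and 20.4 and 38.3 CPM in the w1118 libraries, so that it was at least 546-fold lower in orco2. The transposon insertion S{}AGO2[S1008], named for the RNA interference gene AGO2, likewise had 0 counts in orco2 and 20.2 and 16.1 CPM in w1118, at least 339-fold lower. AGO2 itself, named after its value was seen, had 187 and 186 CPM in orco2 heads, against 265 and 258 CPM in w1118 heads (log2 fold change -0.49 ± 0.12, adjusted p = 0.033). In the other direction the insertion 1360{}94 had 22.4 and 18.3 CPM in orco2 and 0 counts in w1118, at least 469-fold higher. CG30428 and CG30091, with 1 and 2 counts in all of w1118, were higher by 1024-fold (183 to 40480.0, exact 95% counting interval) and by 652-fold (180.1 to 5394, exact 95% counting interval). CG34301 had 84.0 and 87.1 CPM in orco2 heads, against 1.33 and 1.30 CPM in w1118 heads (log2 fold change 6.02 ± 0.23, adjusted p = 1.96e-05), and lncRNA:CR34335, with the joint smallest adjusted p, had 27.4 and 26.6 CPM in orco2 heads, against 276 and 300.1 CPM in w1118 heads (log2 fold change -3.42 ± 0.12, adjusted p = 1.96e-05). The sodium and proton exchanger gene Nha1 had 7.92 and 10.2 CPM in orco2 heads, against 226 and 178 CPM in w1118 heads (log2 fold change -4.48 ± 0.36, adjusted p = 0.000516), and the choline transporter-like gene Ctl2 had 15.5 and 14.7 CPM in orco2 heads, against 66.1 and 67.2 CPM in w1118 heads (log2 fold change -2.14 ± 0.11, adjusted p = 8.12e-05). With each day 40 library left out in turn, the calls of CG34301, lncRNA:CR34335, Nha1, Ctl2, CG3397, S{}AGO2[S1008], 1360{}94, CG30428 and CG30091 held in all 4 fits. The remaining features among the 12 highest, the 12 lowest or the 12 smallest p were CG8100 (6.12 ± 0.62), CG3117 (6.24 ± 0.83), lncRNA:CR40469 (5.95 ± 0.30), lncRNA:CR32553 (3.30 ± 0.17), CG31664 (3.48 ± 0.15), CG6912 (5.07 ± 0.27), sordd2 (4.70 ± 0.20) and copia{}293 (3.91 ± 0.14) on the higher side. On the lower side they were CG9150 (-5.16 ± 0.58), CG8012 (-3.84 ± 0.44), Rsod (-3.46 ± 0.44) and a copia insertion (-3.79 ± 0.38).

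By class, 925 of 6563 named protein-coding genes (14.1%) and 487 of 3766 protein-coding genes known by number alone (12.9%) differed. Transposon insertions had 66 higher and 50 lower of 1176 (9.86%), long noncoding RNAs 20 higher and 18 lower of 422 (9.0%) and antisense RNAs 3 and 3 of 143. Among insertion families with at least 10 tested copies, 297 had 9 higher and 0 lower of 40 (22.5% called). For copia these were 7 and 2 of 30 (30%), whereas blood had 0 and 5 of 21 (23.8%) and opus 0 and 5 of 27 (18.5%). The roo family had 8 and 0 of 105, a called share of 7.62%, under the 13.0% over all features. Insertions of a family share sequence, so reads may be split among them. Every large arm held a like share, from 12.4% on X to 13.8% on 2L, with 7.42% of 364 on chromosome 4. On arm 3R, the share within 1 Mb of the Orco start was 10.4% of 240 features, that between 1 and 5 Mb 8.32% of 529, and that farther away 14.6% of 2120.

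Whether the orco2 effect differed with age was tested as an interaction with the day 3 heads, 2 orco2 and 2 w1118 libraries that share none with day 40. A single feature, or 0.00817% of those tested, passed. Cyp4e3, a P450 gene, had 78.9 and 85.4 CPM in orco2 heads against 15.0 and 14.8 CPM in w1118 heads at day 3. At day 40 it had 46.4 and 39.9 CPM in orco2 heads, against 46.7 and 54.1 CPM in w1118 heads. Its log2 fold change was 2.46 ± 0.13 at day 3 and -0.22 ± 0.12 at day 40, and the difference of -2.69 ± 0.18 passed (adjusted p = 0.00529). It was the only call, while 1215 features had an unadjusted p under 0.05. Leaving out a library gave 0 calls without either w1118 library of day 3 and without orco2 replicate 2 of day 40, 2 without orco2 replicate 1 of day 40, and 286 and 408 without 1 or the other orco2 library of day 3. The DESeq2 Wald test called 186 and limma-voom 1. For the clock genes, the fold changes at day 3 and day 40 were -1.21 ± 0.12 and -1.82 ± 0.13 for per, -1.88 ± 0.18 and -2.35 ± 0.18 for tim, and -1.39 ± 0.11 and -1.99 ± 0.11 for vri (interaction adjusted p = 0.363, 0.56 and 0.346). For trpl they were -0.52 ± 0.09 and -1.23 ± 0.09 (0.206), and for e 0.98 ± 0.15 and 2.04 ± 0.15 (0.22). Prps had 0.54 ± 0.12 and 1.42 ± 0.12, and bmm 0.24 ± 0.14 and 1.16 ± 0.14, with interaction adjusted p of 0.206 and 0.241. Median fold changes of lists at day 3 and day 40 were -0.70 and -0.93 for the core clock, 0.71 and 1.16 for purine synthesis, 0.38 and 0.95 for fatty acid oxidation, and 0.53 and 0.62 for the ribosome. These pairs of values were not shown to differ between the ages.

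**Figure D5:**
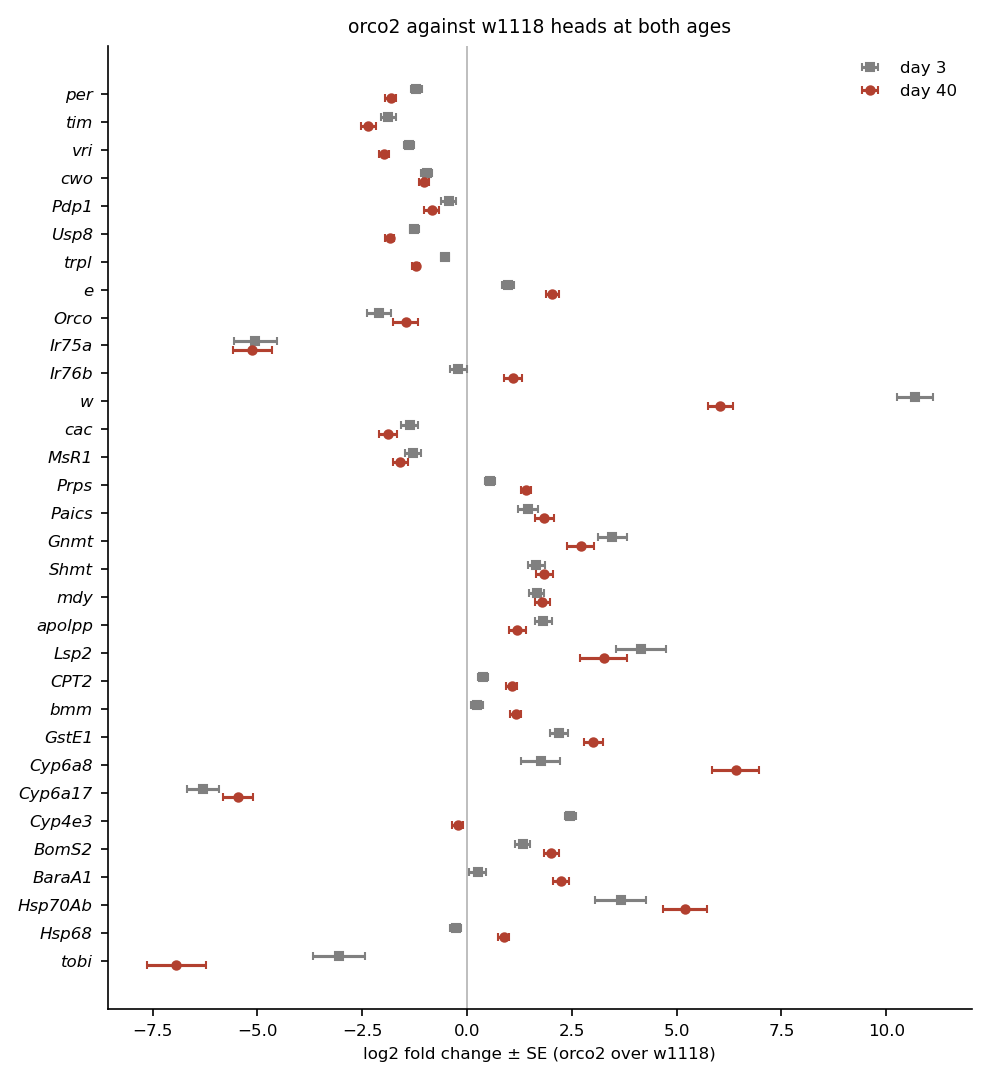
Log2 fold change of orco2 over w1118 heads with its SE, at day 3 (grey squares) and day 40 (red circles), for 32 genes named in the text. Cyp4e3, at 2.46 and -0.22, is the gene whose difference between the ages passed the test.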

How the data were processed

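The deposited table of whole heads held counts of reads per feature, which the authors made. The submitters' processing notes name fastp, HISAT2, featureCounts, DESeq2 and the genome build dm6, without versions. The strand setting and the treatment of reads that map to several places are not given in the sources used here, so near-identical copies and overlapping or antisense genes are uncertain. Of 23882 features, 23320 had a FlyBase symbol, 562 stand under their own identifier and 23801 had coordinates from the BDGP6 annotation, which is the dm6 assembly. Library totals of the 4 day 40 libraries were 30178115 to 33932201 counts. Between 60.3% and 66.7% of the counts from 1 to 20 in a library were even, so a read pair may have been counted by both mates and counting intervals may be too narrow. No 2 libraries held identical values.

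All 8 head libraries (2 per genotype and age, at day 3 and day 40) entered 1 edgeR (4.0.16, R 4.3.3) quasi-likelihood fit of group means with TMM normalization, after filterByExpr with a minimum count of 10 kept 12243 features. The orco2 effect at day 40 and its difference between the ages were tested, with Benjamini-Hochberg adjustment over all tested features and a threshold of 0.05. CPM values use the effective library sizes. The SE of each edgeR log2 fold change was computed as its absolute value divided by the square root of the quasi-likelihood F statistic. It was thus derived from the test. Bounds against a group at 0 take 3 counts over that group as the floor, and ratios have exact 95% intervals, both for counting error only. The alternatives were DESeq2 (1.42.0) size factors and Wald test, limma-voom (3.58.1), no filter, a replicate block, the day 40 libraries alone, each library left out and a length offset from a loess curve on exon length. The length offset and the day 40 fits without a day 3 library were chosen after seeing the data.

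Genes are named by a rule: Orco, per and w, the 12 highest and 12 lowest called changes at a mean of at least 5 CPM, the 12 smallest p, every called member of a list of at most 20 tested genes and up to 6 per direction of a longer one. The comparison, the rule and the 56 gene lists were chosen with earlier results of these data known, 5 more lists were added after values were seen, and 5 genes were then removed as mistakes, of which 4 had been caught by symbol patterns and 1 (insc) by a mix-up of symbols. Promoter sequences were not analysed here.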

Additional observations from a re-analysis of the deposited data

Results flagged for a closer look

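Cyp4e3 was the gene whose orco2 effect differed between the ages by the interaction test. The log2 fold change at day 40 minus that at day 3 was -2.69, with an adjusted p of 0.00529 from edgeR over 12243 features. At day 3 both orco2 libraries lay above both w1118 libraries. At day 40 both orco2 libraries lay below both w1118 libraries, with a log2 fold change of -0.22 that did not pass. This difference rests on 2 libraries per group.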

How the results depend on the processing

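The 1586 features called at day 40 stayed within 1.5 times under DESeq2 size factors (1593), limma-voom (1789), no filter (2115), the DESeq2 Wald test (2301), the replicate block (1238) and the length offset (1262). The day 40 libraries alone called 3113. Leaving out 1 library gave 319 to 3552 calls, and for the difference between ages 0 to 408 calls. That difference had 176 calls without the filter and 186 by the DESeq2 Wald test, against 1 in each of the other fits of all 8 libraries. The cause was not tested. A left-out library leaves fewer samples, and both counts of calls rose when either orco2 library of day 3 was left out. The 2 orco2 libraries of day 3 had a Spearman correlation of 0.973. That of w1118 was 0.994 at day 3 and 0.986 at day 40, and that of orco2 at day 40 was 0.993. The part of this young pair in the shared spread was not tested. Of the 284 named features, 43 lost their call with the replicate block and 51 with the length offset, under which Strn-Mlck also turned from -0.49 to 0.17. Among the fits that each lacked 1 day 40 library, 103 to 184 named features lost the call, and 0 changed direction. The replicate numbers share a number only: deviations of same-numbered libraries correlated at -0.0678 between the day 40 groups and at -0.0715 and -0.0325 between orco2 at day 40 and the groups of day 3. With 2 libraries per group these correlations are tied in size for every pair of groups, and a call lost under the block was not read as a weaker effect. Genes at 0 or a few counts in 1 group are limited by depth: those at 0 have a bound in place of a fold, and those with a few counts a ratio with a wide interval.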
